A study of Mus musculus with 36 samples.

Results

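The comparison set hippocampal RNA from naive APP/Tau mice, which carry an amyloid and a tau transgene, against RNA from naive APP mice, which carry the amyloid transgene alone. It asks what the tau transgene adds on an amyloid background. Its members are the 11 of 36 bulk RNA sequencing libraries whose labels give these genotypes and the naive state, 6 from APP/Tau mice and 5 from APP mice. The APP/Tau mice were heterozygous for human APP with the Swedish and Indiana mutations (Sw,Ind, J9 line) and for human tau with the P301S mutation (PS19 line). The APP mice carried the J9 transgene only. Both groups also carried PV_Cre;RiboTag alleles, which tag ribosomes in parvalbumin neurons, were female, 6 months old and on a C57BL/6 background, and were handled for 3 minutes on each of 3 days and otherwise kept in the home cage. Only the input fraction of both hippocampi was sequenced, so the values cover all cells of the tissue and not the tagged neurons. Whether the numbered samples of a group are separate mice is not stated in the labels, and p-values therefore cover only the variation among these libraries, some of which may be technical.

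APP is cut by secretases into amyloid-β, which forms plaques, and tau, encoded by Mapt, is an axonal microtubule-binding protein that forms tangles when mutated or heavily phosphorylated. Microglia around plaques switch on a set of disease-associated genes that includes Cst7, Clec7a and Itgax, and astrocytes nearby raise Gfap and complement genes. In the lines used here the J9 transgene is driven by a platelet-derived growth factor promoter and the PS19 transgene by the promoter of Prnp, the gene of the prion protein, both active mainly in neurons.

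Library totals were 75.4 to 115 M counts in APP/Tau naive libraries and 70.9 to 102 M in APP naive libraries, and levels are given as CPM, counts per M after library scaling, which do not correct for gene length. The transgene labels were checked on mouse genes. Prnp stood at 1423 to 2142 CPM in 16 of 17 Tau-labelled libraries of the series and at 728 to 879 CPM in the 19 others. The exception, the library labelled Tau trained replicate 4, had 846 CPM and is in neither group here. Usp16, a deubiquitinase gene used here only as a label mark, stood at 12.9 to 14.9 CPM in the 17 APP-labelled libraries and at 24.8 to 30.3 CPM in the 19 others. Mouse App averaged 1559 ± 99 CPM in APP/Tau and 1693 ± 88 CPM in APP libraries, and mouse Mapt 554 ± 21 CPM and 542 ± 17 CPM (SD, n = 6 and 5). Their log2 differences were -0.12 for App (adjusted p = 0.545) and 0.03 for Mapt (adjusted p = 0.844). How far human transgene reads enter these 2 mouse genes was not tested.

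Before the results, 2 libraries stood apart. APP/Tau naive replicates 1 and 6 had far higher levels of disease-associated microglial genes than the other 9 libraries. Microglial, astrocyte and other glial lists are therefore given with and without them. The defining markers of the hippocampal cell types were present in all 11 libraries. Summed levels were 2820 to 3650 CPM in APP/Tau and 2810 to 3470 CPM in APP libraries for astrocytes (Aqp4, Aldh1l1, Slc1a2, Gja1), and 957 to 1250 CPM and 1130 to 1260 CPM for pyramidal cells (Wfs1, Fibcd1, Mpped1, Pou3f1, Nptx1). Choroid plexus markers (Ttr, Folr1, Kl, Kcnj13, Clic6) varied most, from 80.8 to 3030 CPM in APP/Tau and from 504 to 3330 CPM in APP libraries. Ttr, the transthyretin gene of the choroid plexus, was at 83.9, 46.5 and 47.3 CPM in APP/Tau replicates 1, 3 and 4, against 427 to 3054 CPM in APP libraries.

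Of 25382 genes tested, 8 passed an adjusted p of 0.05 (0.0315%), 6 of them higher in APP/Tau (0.0236%) and 2 lower (0.00788%). The 6 that rose were Prnp and 5 transcripts that the APP libraries nearly or wholly lack: Lamr1-ps1, Gm32754, 4930590L14Rik, Gm6214 and Gm32875. The 2 that fell were Dnttip2, which encodes a nucleolar protein, and Fmn2, which encodes an actin-nucleating formin. An unadjusted p under 0.05 was reached by 2301 genes (9.07%), 1379 higher (5.43%) and 922 lower (3.63%). The median log2 change over all genes tested was 0.01.

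**Figure D1:**
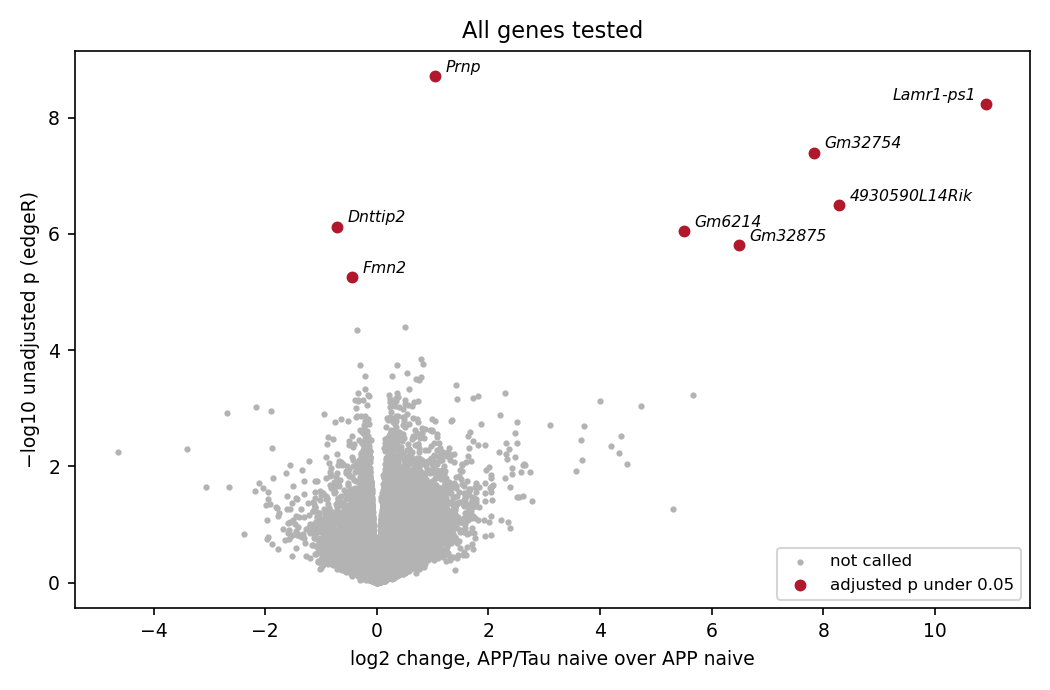
Log2 change (APP/Tau naive over APP naive, x axis) against the unadjusted edgeR p on a −log10 scale (y axis) for 25382 genes, with the 8 called genes in red and named. The 6 genes that rose lie at log2 changes of 1.04 and above, and Dnttip2 and Fmn2 lie at -0.72 and -0.44.

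Prnp was at 1789, 1590, 1830, 1603, 1680 and 1694 CPM in APP/Tau libraries, against 870, 791, 843, 772 and 840 CPM in APP libraries. The groups did not overlap, and no single library set the difference. The log2 change was 1.04 (SE 0.13, adjusted p = 4.86e-05). Whether the added counts come from the mouse gene or from prion sequence in the PS19 construct was not tested. The promoter window of Prnp is shown because this is the promoter named for the PS19 transgene and the gene with the smallest p. It is 300 bases of chr2:131909678-131909977 on the plus strand of GRCm38.p6, from RefSeq, where 250 bases precede the gene start. Capitals mark the Sp1 box GGGCGG, found once as written and at 2 places as its reverse complement CCGCCC. This box is in 35.7% of 32851 promoter windows of the same length, on either strand.
Prnp: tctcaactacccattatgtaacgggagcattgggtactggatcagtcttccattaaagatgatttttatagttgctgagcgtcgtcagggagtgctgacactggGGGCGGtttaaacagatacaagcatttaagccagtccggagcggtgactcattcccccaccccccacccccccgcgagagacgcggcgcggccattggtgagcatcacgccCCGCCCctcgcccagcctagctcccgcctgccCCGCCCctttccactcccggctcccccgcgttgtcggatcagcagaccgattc

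The genes beside Prnp were compared with it. In the gene order of GRCm38.p6 (the counts were made on mm39) Lamr1-ps1, Prnp, Prn and Prnd are consecutive on chromosome 2. Lamr1-ps1, a pseudogene whose reads may be shared with near-identical copies, had 208 to 346 counts in each APP/Tau library and 0 in each of the 5 APP libraries. It was at least 391-fold higher, taking 3 counts over the whole APP group as the floor (adjusted p = 7.34e-05). Prnd, the doppel gene, was at 0 to 0.333 CPM in APP/Tau and 0 to 0.103 CPM in APP libraries (log2 difference 1.57, SE 0.65, adjusted p = 0.545). Prn, whose annotated start is that of Prnp, was at 52.5 to 63.3 CPM and 47.5 to 52.95 CPM (log2 difference 0.14, SE 0.07, adjusted p = 0.545). The shadoo gene Sprn, another member of the prion family, averaged 183 ± 19 CPM in APP/Tau and 206 ± 10 CPM in APP libraries (log2 difference -0.17, adjusted p = 0.545).

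The other 4 transcripts that rose are consecutive in the GRCm38.p6 order on chromosome 3, where Gm6214 is annotated as a pseudogene and Gm32754, Gm32875 and 4930590L14Rik as long non-coding RNAs. Gm32754 had 24 to 41 counts in each APP/Tau library and none in the APP libraries, which makes it at least 45.1-fold higher (adjusted p = 0.000336). 4930590L14Rik had 28 to 54 counts and none, at least 63-fold higher (adjusted p = 0.00204), and Gm32875 had 4 to 22 counts and none, at least 18.1-fold higher (adjusted p = 0.00558). Gm6214 had 10 to 19 counts in each APP/Tau library and a single count in the APP group, in replicate 3. Its ratio was 69.6, with an exact Poisson interval of 12.2 to 2780 that covers counting error only (adjusted p = 0.0038).

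Dnttip2 was at 14.3, 14.5, 12.4, 12.4, 11.8 and 10.9 CPM in APP/Tau libraries, against 23.1, 23.1, 22.8, 19.7 and 15.7 CPM in APP libraries. The groups did not overlap, although APP replicate 5 lay close to the APP/Tau range. The log2 change was -0.72 (SE 0.12, adjusted p = 0.0038). Dnttip2 is on chromosome 3 as well, with 258 annotated genes between it and Gm6214. Fmn2, on chromosome 1, was at 38.6, 35.9, 43.7, 44.5, 39.0 and 37.4 CPM in APP/Tau libraries, against 53.1, 59.1, 57.2, 51.5 and 50.0 CPM in APP libraries. All 6 APP/Tau libraries lay below all 5 APP libraries (log2 change -0.44, SE 0.08, adjusted p = 0.0178). The call of Fmn2 was lost when APP/Tau replicate 1, 2, 5 or 6 or APP replicate 2 or 3 was left out, at adjusted p-values of 0.0621 to 0.129, and without APP/Tau replicates 1 and 6 its adjusted p was 0.367 at a log2 change of -0.41. Phf20, a reader of methylated histones on chromosome 2, came next among lower genes. It averaged 63.2 ± 5.2 CPM in APP/Tau and 80.5 ± 3.8 CPM in APP libraries without overlap (log2 difference -0.35, SE 0.07, adjusted p = 0.115), and passed without APP/Tau replicate 2 (adjusted p = 0.0408).

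**Figure D2:**
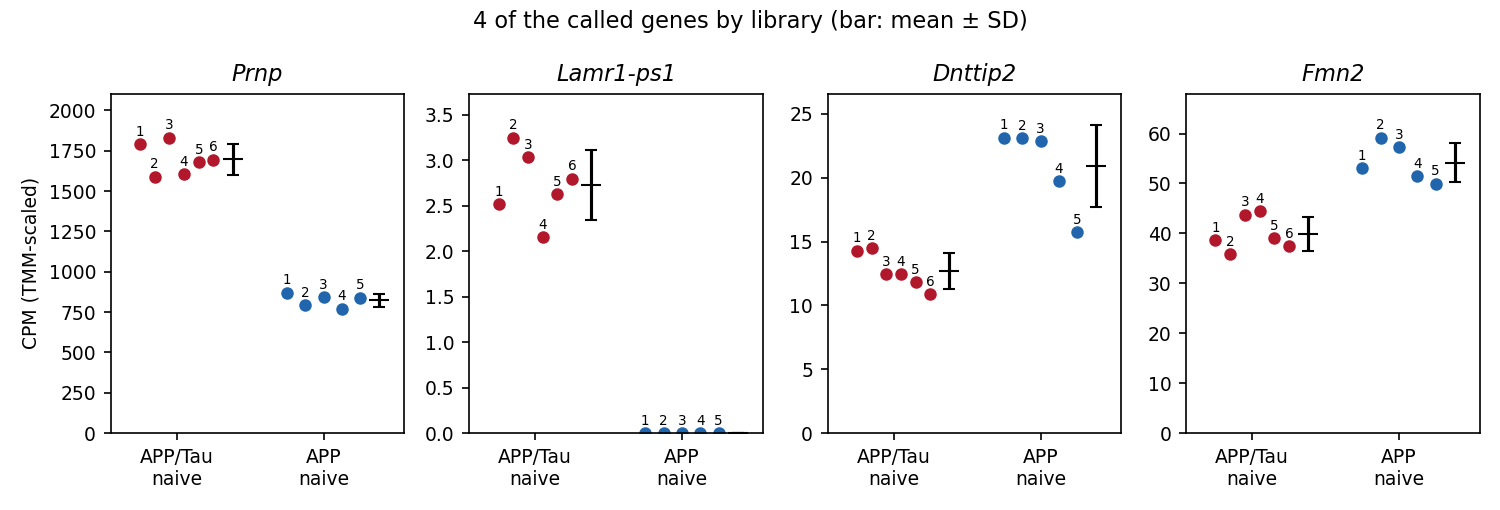
Level of 4 of the called genes in each library (CPM, y axis from 0), with APP/Tau naive (red) left of APP naive (blue), small numbers giving the replicate and black bars the mean ± SD. In each panel the groups do not overlap: Prnp and Lamr1-ps1 are higher and Dnttip2 and Fmn2 lower in APP/Tau.

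Called genes were then read in other comparisons of the tau transgene. The group called WT here is titled Control in the labels. Tau naive against WT naive, which uses none of the same libraries, called 6 genes (0.0236%), and Prnp changed there by 0.98 (SE 0.13, adjusted p = 0.000145). Lamr1-ps1 was at 1.62 to 2.98 CPM in Tau naive libraries and at 0 in WT naive libraries. Dnttip2 differed by 0.16 in that comparison (SE 0.13, adjusted p = 0.75) and Fmn2 by 0.07 (SE 0.09, adjusted p = 0.845). By group, Dnttip2 averaged 12.7 ± 1.4 CPM in APP/Tau, 20.9 ± 3.2 CPM in APP, 16.5 ± 1.7 CPM in Tau and 14.8 ± 2.0 CPM in WT naive libraries. Fmn2 averaged 39.9 ± 3.5, 54.2 ± 3.9, 44.4 ± 2.5 and 42.3 ± 4.9 CPM in the same order. APP naive libraries thus had the highest mean of the 4 naive groups for both genes.

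The difference between the tau effect with and without APP was tested directly. No gene passed with edgeR (0%), while 1636 genes had an unadjusted p under 0.05 (6.45%). The smallest adjusted p was 0.189, for Dnttip2 (difference of log2 changes -0.87, SE 0.17) and Phf20 (-0.55, SE 0.11). Fmn2 was at -0.51 (SE 0.12, adjusted p = 0.362). Zcchc8 and Tmem86b had the same adjusted p as Fmn2 in the other direction, at 0.38 (SE 0.09) and 1.16 (SE 0.27). DESeq2 called 4 genes, Dnttip2 and Phf20 among them (1740 unadjusted), limma-voom none (2913 unadjusted), and edgeR on the 4 naive groups alone called Phf20. Without APP naive replicate 5, edgeR called Dnttip2.

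The same genotypes were also compared after training in the Morris water maze, with 3 libraries each. Training took 5 days with 6 trials per day. A probe trial followed 24 hours after the last trial, and tissue was taken 2 hours after the probe trial. APP/Tau trained against APP trained called 3 genes (0.0118%): Prnp, Lamr1-ps1 and Gm32754. Dnttip2 was at 10.2 to 11.8 CPM in APP/Tau trained and 12.5 to 21.97 CPM in APP trained libraries (log2 difference -0.77, SE 0.16, adjusted p = 0.129). Fmn2 was at 36.9 to 43.6 CPM and 50.8 to 54.9 CPM (log2 difference -0.41, SE 0.11, adjusted p = 0.618). The difference between the naive and the trained tau effect was called for no gene with edgeR (0%), DESeq2 or limma-voom, with 816 (3.21%), 898 and 1568 genes at an unadjusted p under 0.05. It was 0.06 for Dnttip2 (SE 0.20) and -0.03 for Fmn2 (SE 0.14), both at an adjusted p of 1. Trained mice without APP had the other order. Dnttip2 was at 23.3, 22.8, 23.4 and 19.8 CPM in Tau trained libraries, against 11.2 to 14.9 CPM in WT trained libraries. Fmn2 was at 54.9, 71.1, 54.5 and 60.5 CPM, against 38.4 to 53 CPM. The last value of each Tau trained group is that of replicate 4, whose Prnp level goes against its label. This pair of groups was not tested, and the order is given for these values only.

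No member of any list below passed the test over all genes. A list is described by how many members lay above or below 0, how many had an unadjusted p under 0.05 in each direction, and its median log2 change, each read against all genes tested, of which 51.6% lay above and 48.4% below 0, 5.43% and 3.63% had such a p, and the median was 0.01. Without APP/Tau replicates 1 and 6 the shares of all genes with an unadjusted p were 2.85% higher and 2.03% lower, and with the choroid plexus score as a covariate 4.68% and 3.32%. These shares were 4.82% and 3.5% without APP/Tau replicate 1 alone, and 3.19% and 2.28% without APP/Tau replicate 6 alone. Because the tissue was measured in bulk, fewer cells of a type and less RNA per cell cannot be told apart.

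Microglial genes were higher on average in APP/Tau, and the difference rested on replicates 1 and 6. Cst7, a cathepsin inhibitor of plaque-associated microglia, was at 4.44 and 5.29 CPM in these libraries, at 0.0701 to 0.263 CPM in the other 4 APP/Tau libraries, and at 0 to 0.0889 CPM in APP libraries. The β-glucan receptor gene Clec7a, named after its values were seen, was at 12.4 and 14.3 CPM in replicates 1 and 6, at 0.129 to 1.31 CPM in the other 4, and at 0.115 to 0.432 CPM in APP libraries. The log2 difference of Cst7 was 5.67 (SE 1.47, adjusted p = 0.424), and DESeq2 called it (adjusted p = 0.00067). Without replicates 1 and 6 the edgeR difference was 2.12 for Cst7 (adjusted p = 0.909) and 0.84 for Clec7a (adjusted p = 0.937). APP/Tau replicate 2 was the next library in order for both genes, and the remaining 3 lay within or near the APP range.

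Itgax, the CD11c integrin gene, was also highest in these libraries, with 24.0 and 16.3 CPM in replicates 1 and 6 against 0.212 to 0.474 CPM in APP libraries. Cybb, the phagocyte oxidase gene, was at 4.32 and 5.05 CPM there against 0.226 to 0.531 CPM in APP libraries. Lyz2, the lysozyme gene of myeloid cells, was at 43.9 and 53.7 CPM against 4.98 to 8.04 CPM. The lipid receptor gene Trem2, also named after its values were seen, was at 24.5 and 21.9 CPM, with 7.44 to 9.41 CPM in the other 4 APP/Tau libraries and 7.52 to 10.2 CPM in APP libraries. For Trem2 the other 4 libraries thus lay within the APP range or slightly under it.

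Of 32 disease-associated microglia genes, 29 lay above 0 and 12 had an unadjusted p on the higher side (37.5%), with a median log2 change of 0.57. Without APP/Tau replicates 1 and 6, 13 lay above 0, none had an unadjusted p on the higher side and 2 on the lower, and the median was -0.04. Leaving out replicate 1 alone gave a median of 0.29. The list's median was 0.34 in Tau naive against WT naive and 0.63 in APP/Tau trained against APP trained, with no member called in either. The list score, which is the mean log2 CPM of the members minus its mean over all 36 libraries, was 1.64 and 1.68 in replicates 1 and 6, 0.31 in replicate 2, and -0.35 to -0.19 in the other 3, against -0.31 to -0.23 in APP libraries. Homeostatic microglia markers did not follow as a whole: P2ry12, the purinergic receptor gene, was at 38.1 and 32.1 CPM in replicates 1 and 6 against 35.1 to 42.8 CPM in APP libraries, and Tmem119 at 21.6 and 21.2 CPM against 21 to 25.6 CPM. The growth factor receptor gene Csf1r was at 138 and 121 CPM in these 2 libraries against 78.6 to 89.5 CPM in APP libraries. None of the 18 homeostatic markers had an unadjusted p under 0.05, and their median was 0.18 with and -0.05 without the 2 libraries.

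The promoter windows of Clec7a and Cst7 are shown because these genes are among those that set the 2 libraries apart. Each is 300 bases of GRCm38.p6 from RefSeq, chr6:129472730-129473029 on the minus strand for Clec7a, 1 of 2 windows listed for that gene, and chr2:150570165-150570464 on the plus strand for Cst7. Capitals mark GAGGAA, a sequence bound by PU.1, a factor of the myeloid lineage, found at 1 place as written in the Clec7a window. Neither GAGGAA nor its reverse complement TTCCTC is in the Cst7 window or in that of Prnp. Other forms of the PU.1 site were not searched for. GAGGAA is in 28.3% of 32851 promoter windows on either strand.
Clec7a: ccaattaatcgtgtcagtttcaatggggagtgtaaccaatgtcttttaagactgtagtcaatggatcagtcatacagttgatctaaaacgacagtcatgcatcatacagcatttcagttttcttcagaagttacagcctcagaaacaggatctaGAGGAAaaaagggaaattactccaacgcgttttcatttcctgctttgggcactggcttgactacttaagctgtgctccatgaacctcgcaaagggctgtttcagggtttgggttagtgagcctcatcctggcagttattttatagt
Cst7: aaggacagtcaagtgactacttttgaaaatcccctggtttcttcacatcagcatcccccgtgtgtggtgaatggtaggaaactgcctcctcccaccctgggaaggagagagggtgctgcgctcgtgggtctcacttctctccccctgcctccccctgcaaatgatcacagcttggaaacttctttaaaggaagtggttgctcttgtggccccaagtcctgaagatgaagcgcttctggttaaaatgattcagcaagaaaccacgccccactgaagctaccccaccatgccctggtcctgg

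**Figure D3:**
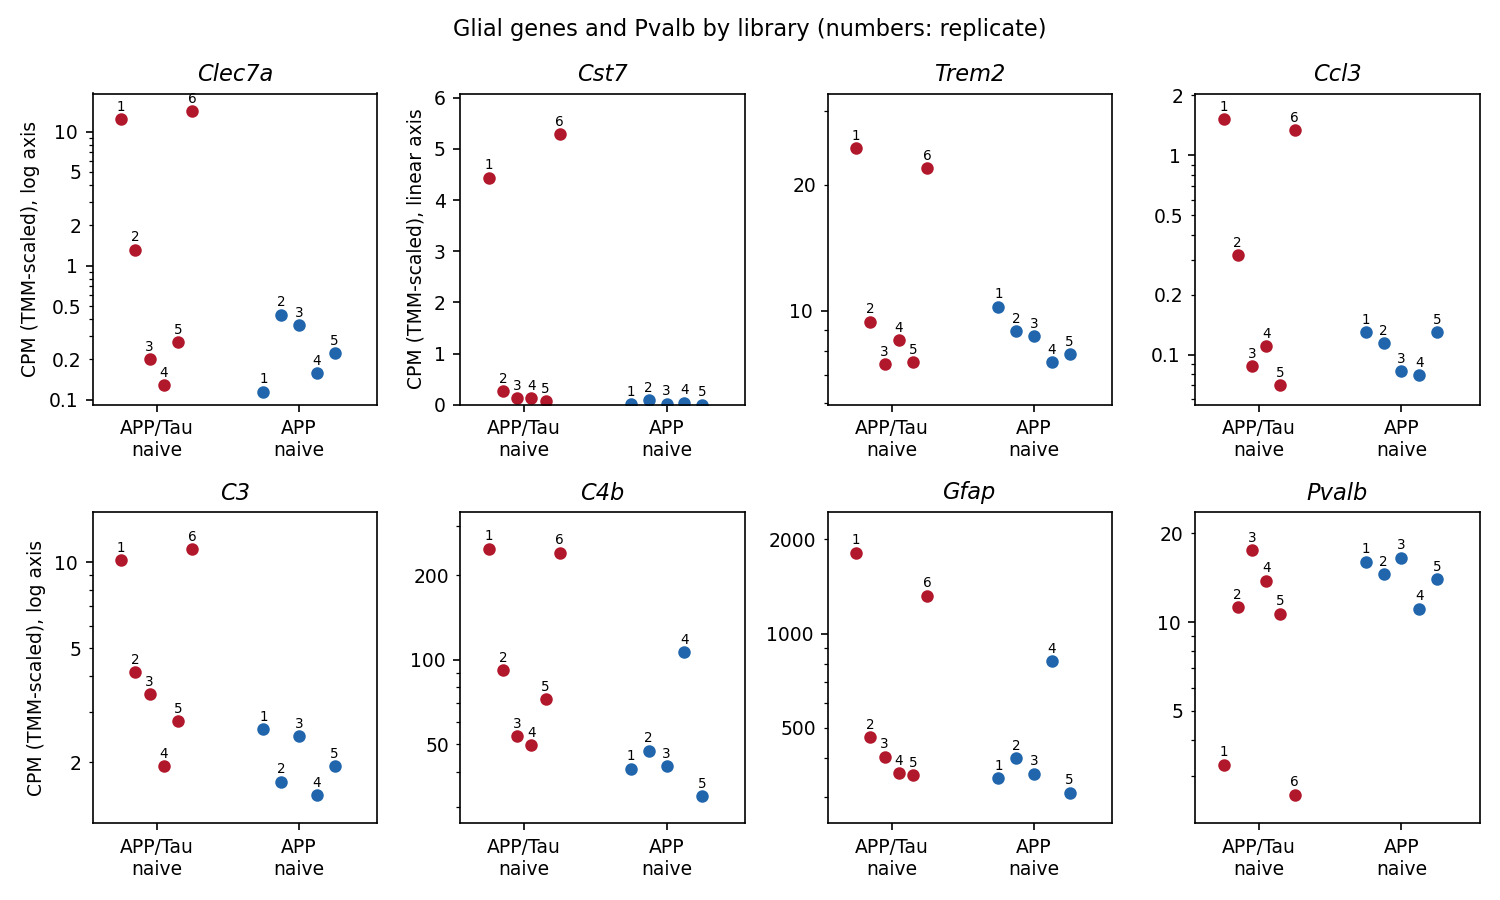
Level of 7 glial genes and of Pvalb in each library (CPM, log axis except Cst7, which is linear because a library is at 0), with APP/Tau naive (red) left of APP naive (blue) and replicate numbers beside the points. APP/Tau replicates 1 and 6 are the highest for all 7 glial genes and the lowest for Pvalb, at 3.28 and 2.60 CPM, and the other 4 APP/Tau libraries lie near or within the APP range for most of them.

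Inflammatory signalling genes showed the same libraries. Ccl3 and Ccl4 encode chemokines of activated microglia. Ccl3 was at 1.51 and 1.34 CPM in replicates 1 and 6, 0.0701 to 0.315 CPM in the other APP/Tau libraries and 0.0787 to 0.129 CPM in APP libraries. Of 18 chemokine and cytokine genes, 16 lay above 0, 7 had an unadjusted p on the higher side (38.9%), and the median log2 change was 1.06. Without the 2 libraries 12 lay above 0, none had such a p and the median was 0.10. Among 28 interferon-stimulated genes 26 lay above 0 and 4 had an unadjusted p on the higher side (14.3%), with a median of 0.36, and without the 2 libraries the median was -0.15. The chemokine and interferon medians were 0.67 and 0.63 in Tau naive against WT naive, and 0.91 and 1.12 in the trained comparison. Cxcl10, an interferon-induced chemokine gene, was at 1.62 and 3.60 CPM in replicates 1 and 6 and at 0.188 to 0.391 CPM in APP libraries. APP replicate 1 also scored 0.46 on the interferon list, above 4 of the 6 APP/Tau libraries.

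C3, the central complement component, was at 10.2, 4.13, 3.45, 1.94, 2.78 and 11.1 CPM in APP/Tau libraries, against 2.61, 1.71, 2.47, 1.53 and 1.94 CPM in APP libraries (log2 difference 1.44, SE 0.38, adjusted p = 0.424, and 0.58 without replicates 1 and 6). Here 5 of 6 APP/Tau libraries lay above every APP library, replicate 4 being the exception. C4b, a complement gene of reactive astrocytes, was at 249 and 240 CPM in replicates 1 and 6 and 49.6 to 91.6 CPM in the other 4, against 32.7 to 47.4 CPM in 4 APP libraries and 106 CPM in APP replicate 4. Gfap, the astrocyte intermediate filament gene, named after its values were seen, was at 1812 and 1322 CPM in replicates 1 and 6, 354 to 467 CPM in the other 4, and 310 to 818 CPM in APP libraries, with APP replicate 4 highest. The log2 difference of Gfap was 0.82 (adjusted p = 0.638) and became -0.18 without the 2 libraries.

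Of 17 complement genes 11 lay above 0 and 4 had an unadjusted p on the higher side (23.5%), with a median of 0.22, against 0.01 without the 2 libraries. C1qa and C1qb, subunits of the complement initiator C1q, were at 84.2 and 84.6 CPM in replicate 1 and at 74.9 and 81.6 CPM in replicate 6, against 26.9 to 34.3 and 28.2 to 36.8 CPM in APP libraries. Of 24 reactive astrocyte genes 17 lay above 0 and 5 had an unadjusted p on the higher side (20.8%), with a median of 0.32, against -0.05 without the 2 libraries. Of 30 lysosomal genes 24 lay above 0, with a median of 0.07, against 9 and -0.05 without them. Cd68, a lysosomal membrane gene of phagocytes, was at 18.3 and 15.5 CPM in the 2 libraries, 4.96 to 7.19 CPM in the other 4, and 5.64 to 6.27 CPM in APP libraries.

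The 2 libraries were set against other values. Choroid plexus scores were -1.39 in replicate 1 and 1.91 in replicate 6, so these libraries do not share a choroid level. The peripheral immune markers Cd3e, Cd8a, Ccr2, Cd79a and Mrc1 summed to 2.04 to 8.29 CPM in APP/Tau and 1.94 to 6.6 CPM in APP libraries. The highest sum, 8.29 CPM, was that of replicate 6, and replicate 1 had 4.39 CPM. Mrc1 made up most of these sums, at 7.01 CPM in replicate 6 and 3.83 CPM in replicate 1. The other markers were each at 0.468 CPM or less in every library. Among them Cd8a was at 0.448 CPM in replicate 6 and 0.097 CPM in replicate 1, against 0.0118 to 0.0926 CPM in APP libraries. Border macrophage and peripheral immune genes scored 1.00 in replicate 6 and 0.36 in replicate 1, with -0.41 to 0.53 in the other 4 and -0.45 to 0.47 in APP libraries, and their part in the microglial values was not tested. Pvalb, the calcium-binding protein gene of fast-spiking interneurons and the driver of the Cre allele, was at 3.28 and 2.60 CPM in replicates 1 and 6, 10.7 to 17.5 CPM in the other 4, and 11.1 to 16.5 CPM in APP libraries (log2 difference -0.55, SE 0.45, adjusted p = 0.727). Gad1, the GABA synthesis gene, was at 313 and 259 CPM in these libraries against 287 to 322 CPM in APP libraries, and Lhx6, a gene of interneurons from the ganglionic eminence, at 23.1 and 19.1 CPM against 20.5 to 24.3 CPM. Low Pvalb was not particular to this genotype, with a lowest value of 2.59 CPM in WT naive libraries. Clec7a reached 8.79 CPM in Tau naive and 13.8 CPM in APP/Tau trained libraries, and no more than 0.623 CPM in WT naive and 0.134 CPM in APP trained libraries.

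Myelin and mature oligodendrocyte genes all lay above 0. Of 21 members 7 had an unadjusted p on the higher side (33.3%), and the median log2 change was 0.25. Mbp, which encodes myelin basic protein, was at 1883, 1965, 1830, 1619, 1490 and 1912 CPM in APP/Tau libraries, against 1173, 1424, 1761, 1346 and 1442 CPM in APP libraries (log2 difference 0.32, SE 0.12, adjusted p = 0.542, and 0.27 without replicates 1 and 6). APP replicate 3 overlapped the APP/Tau range, and the other 4 APP libraries lay below all APP/Tau libraries. Mobp, a myelin-associated gene, averaged 666 ± 87 CPM in APP/Tau and 508 ± 71 CPM in APP libraries, and Hapln2, a matrix link gene of the nodes of Ranvier, 36.7 ± 8.3 CPM and 25.7 ± 3.6 CPM. Plxnb3, a semaphorin receptor gene of oligodendrocytes, was at 23.8 to 34.02 CPM in APP/Tau and 17.5 to 23.4 CPM in APP libraries without overlap (log2 difference 0.54, SE 0.13, adjusted p = 0.412, and 0.47 without replicates 1 and 6).

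All 21 myelin members remained above 0 without APP/Tau replicates 1 and 6, when 3 had an unadjusted p on the higher side and the median was 0.16. With the choroid plexus score as a covariate 18 members had such a p and the median was 0.34. The scores overlapped, at -0.08 to 0.39 in APP/Tau and -0.35 to 0.20 in APP libraries. In Tau naive against WT naive the list's median was 0.22, and in APP/Tau trained against APP trained it was 0.51. Of 14 genes of oligodendrocyte precursors 9 lay below 0 and 3 had an unadjusted p on the lower side (21.4%), with a median of -0.04. Without replicates 1 and 6, 11 lay below 0 with a median of -0.11, and with the choroid plexus score as a covariate 7 lay below 0 with a median of -0.01. The medians of this list were 0.12 in Tau naive against WT naive and 0.21 in the trained comparison. The proteoglycan gene Cspg4 averaged 20.4 ± 1.7 CPM in APP/Tau and 23.6 ± 1.9 CPM in APP libraries, and Pdgfra, the growth factor receptor of these cells, 53.7 ± 2.8 CPM and 59.3 ± 3.7 CPM.

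Genes of oxidative phosphorylation lay below 0 throughout. All 74 nuclear-encoded members had a negative log2 change, 33 with an unadjusted p on the lower side (44.6%), and the median was -0.14. Ndufb9, a complex I subunit gene, was at 77.6, 81.1, 90.1, 90.8, 72.8 and 82.0 CPM in APP/Tau libraries, against 98.7, 97.8, 98.1, 89.7 and 97.5 CPM in APP libraries (log2 difference -0.23, SE 0.07, adjusted p = 0.507). APP replicate 4 was the low library of its group and lay within the APP/Tau range. Atp5k, an ATP synthase subunit gene, averaged 29.4 ± 1.7 CPM in APP/Tau and 35.1 ± 2.8 CPM in APP libraries. The list scores of APP/Tau replicates 1 to 6 were -0.10, -0.09, -0.01, -0.01, -0.21 and -0.08, against 0.12, 0.09, 0.11, -0.07 and 0.06 in APP libraries. APP replicate 4 was the APP library within the APP/Tau range. Without replicates 1 and 6, all 74 stayed below 0, 20 had such a p and the median was -0.14. With the choroid plexus score as a covariate the 74 lay below 0 too, 16 had such a p and the median was -0.11. In Tau naive against WT naive the median was -0.05, and in the trained comparison -0.14.

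Of 13 mitochondrially encoded genes 12 lay below 0, 5 of them with an unadjusted p (38.5%), and the median was -0.29. Such a p was reached by 3 without replicate 1 or with the choroid plexus score as a covariate, and by 1 without replicates 1 and 6, with medians of -0.25, -0.22 and -0.23. In Tau naive against WT naive the median was -0.02. ND1, a complex I subunit gene of the mitochondrial genome, was at 3989 to 4812 CPM in APP/Tau and 5132 to 6371 CPM in APP libraries without overlap (log2 difference -0.29, SE 0.11, adjusted p = 0.54). COX2, a cytochrome oxidase subunit gene, averaged 51.2 ± 8.5 CPM in APP/Tau and 69.8 ± 12.0 CPM in APP libraries. The input was a supernatant cleared of mitochondria by centrifugation, and how much mitochondrial RNA each preparation retained was not tested. Of 80 cytosolic ribosomal protein genes 76 lay below 0, 17 with an unadjusted p (21.2%), and the median was -0.12. In 5 of them, Rpl13 among these, every APP/Tau library lay below every APP library, as in 0.556% of all genes tested. Rpl13, which encodes a large subunit protein, was at 42.3 to 51.4 CPM in APP/Tau and 51.8 to 56.1 CPM in APP libraries. With the choroid plexus score as a covariate 72 ribosomal genes lay below 0, 8 had such a p and the median was -0.09. Without replicates 1 and 6, 77 lay below 0, 22 had such a p and the median was -0.16. The ribosomal median was -0.03 in Tau naive against WT naive and -0.14 in the trained comparison.

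**Figure D4:**
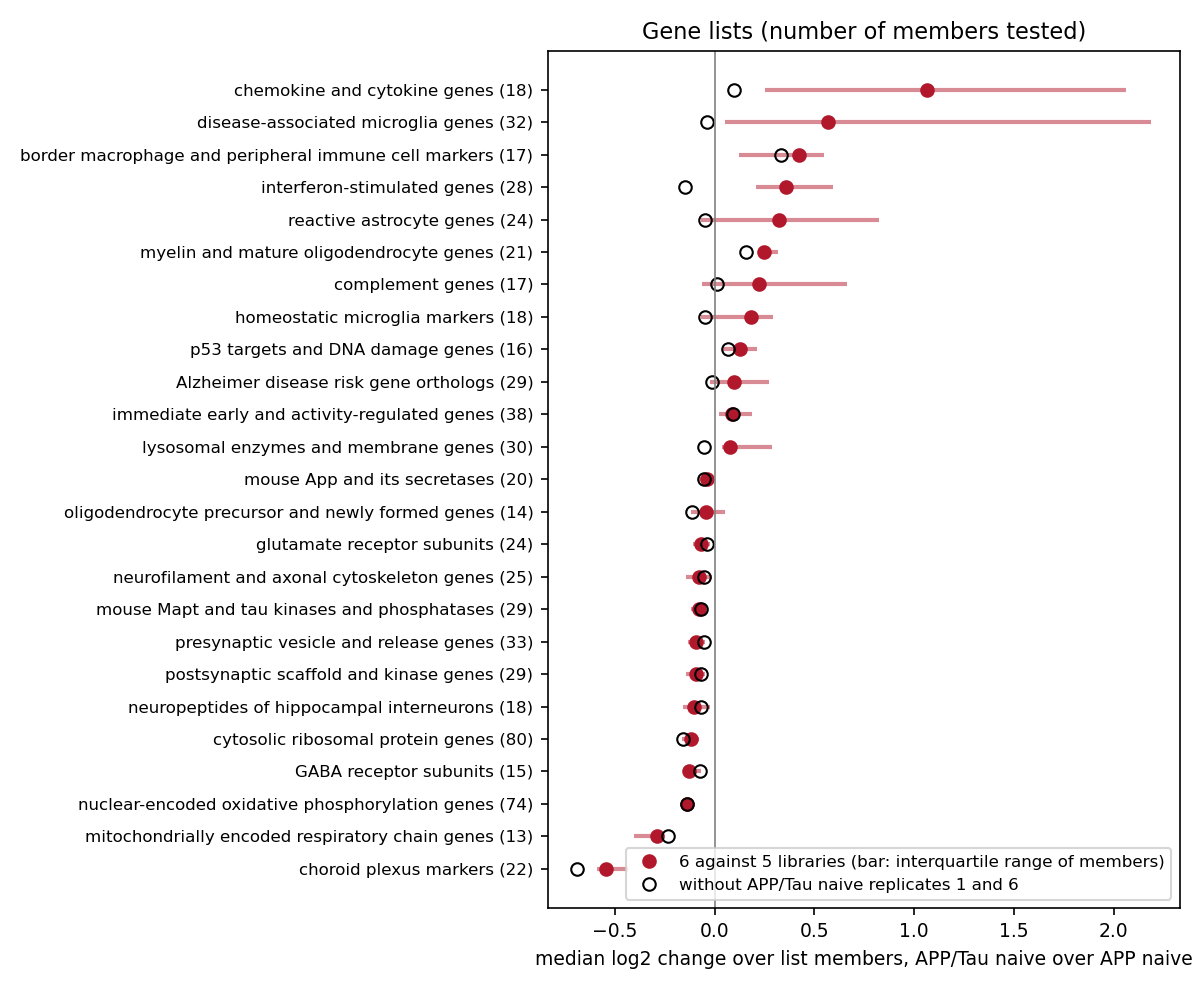
Median log2 change (APP/Tau naive over APP naive, x axis) over the tested members of 25 gene lists, with the number tested after each name. Red points and bars give the median and the interquartile range of members with all 11 libraries and open circles the median without APP/Tau replicates 1 and 6; the immune and astrocyte medians shift towards or below 0, while the myelin median stays positive and the oxidative phosphorylation, ribosomal and synaptic medians stay negative.

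Synaptic genes lay mostly a little below 0. Of 33 presynaptic genes 29 were below 0 and 7 had an unadjusted p on the lower side (21.2%), with a median of -0.09. Cplx2, which encodes the fusion clamp complexin, averaged 1636 ± 166 CPM in APP/Tau and 1915 ± 61 CPM in APP libraries (log2 difference -0.23, SE 0.07, adjusted p = 0.473), and the vesicle phosphoprotein gene Syn1 averaged 473 ± 32 CPM and 529 ± 12 CPM. Of 29 postsynaptic genes 26 were below 0 and 9 had such a p (31%), with a median of -0.10. Dlg4, the gene of the scaffold PSD-95, was at 708, 707, 732, 709, 676 and 606 CPM in APP/Tau libraries, against 794, 767, 779, 760 and 778 CPM in APP libraries. All 6 APP/Tau values lay under all 5 APP values (log2 difference -0.17, SE 0.05, adjusted p = 0.507). Without replicates 1 and 6, 25 of 33 and 24 of 29 members were below 0, 2 in each list had such a p, and the medians were -0.05 and -0.07.

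Of 15 GABA receptor subunit genes 13 lay below 0 and 5 had an unadjusted p on the lower side (33.3%), with a median of -0.13. Gabbr2, a metabotropic subunit gene, averaged 329 ± 29 CPM in APP/Tau and 363 ± 18 CPM in APP libraries. Of 24 glutamate receptor subunit genes 20 lay below 0 and none had an unadjusted p under 0.05, with a median of -0.07. Without replicates 1 and 6 no GABA receptor gene had such a p either, and the medians were -0.07 and -0.04. Of 18 neuropeptide and related genes of hippocampal interneurons 14 lay below 0. Among them Npy, which encodes neuropeptide Y, averaged 19.8 ± 2.6 CPM in APP/Tau and 22.9 ± 2.2 CPM in APP libraries.

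Axonal genes lay mostly below 0 as well, 20 of 25, with 6 at an unadjusted p (24%), against 2 without replicate 6 and 1 without replicates 1 and 6. Kif5a, a kinesin heavy chain gene of axonal transport, was at 1657, 1689, 1961, 2192, 1727 and 1687 CPM in APP/Tau libraries, against 2076, 2507, 2599, 2236 and 2283 CPM in APP libraries. Only APP/Tau replicate 4 reached the APP range (log2 difference -0.36, SE 0.10, adjusted p = 0.457). Its paralogue Kif5c was at 714 to 849 CPM in APP/Tau and 860 to 939 CPM in APP libraries without overlap (log2 difference -0.21, SE 0.05, adjusted p = 0.412). Of 29 genes for mouse Mapt and the kinases and phosphatases of tau, 23 lay below 0 and 7 had an unadjusted p (24.1%), with a median of -0.08, against 3 with such a p without replicate 6 and 2 without replicates 1 and 6. Cdk5r1, which encodes the p35 activator of the tau kinase Cdk5, averaged 244 ± 13 CPM in APP/Tau and 269 ± 9 CPM in APP libraries. The JNK scaffold gene Mapk8ip2 was at 215 to 255 CPM in APP/Tau and 264 to 274 CPM in APP libraries.

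Genes that cut APP showed little difference. Of 20 genes for mouse App and its secretases and degrading enzymes 17 lay below 0, 1 had an unadjusted p on the higher side (5%) and 2 on the lower (10%), with a median of -0.04. Adam17, an α-secretase gene, averaged 17.5 ± 2.5 CPM in APP/Tau and 15.3 ± 0.9 CPM in APP libraries. Its log2 difference was 0.19, and 0.06 without APP/Tau replicates 1 and 6. Ide, which encodes the insulin-degrading enzyme that also clears amyloid-β, was at 44.6 to 49.5 CPM in APP/Tau libraries, against 46.7, 48.6 and 52.1 CPM in 3 APP libraries and 77.0 and 78.5 CPM in APP replicates 4 and 1. Of 29 mouse orthologues of Alzheimer disease risk genes 20 lay above 0 with a median of 0.10, and without replicates 1 and 6 the count was 11 and the median -0.01. Among them Zcwpw1, a histone reader gene, was at 7.40 to 8.97 CPM in APP/Tau and 6.32 to 6.74 CPM in APP libraries without overlap (log2 difference 0.33, SE 0.09, adjusted p = 0.434).

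**Figure D5:**
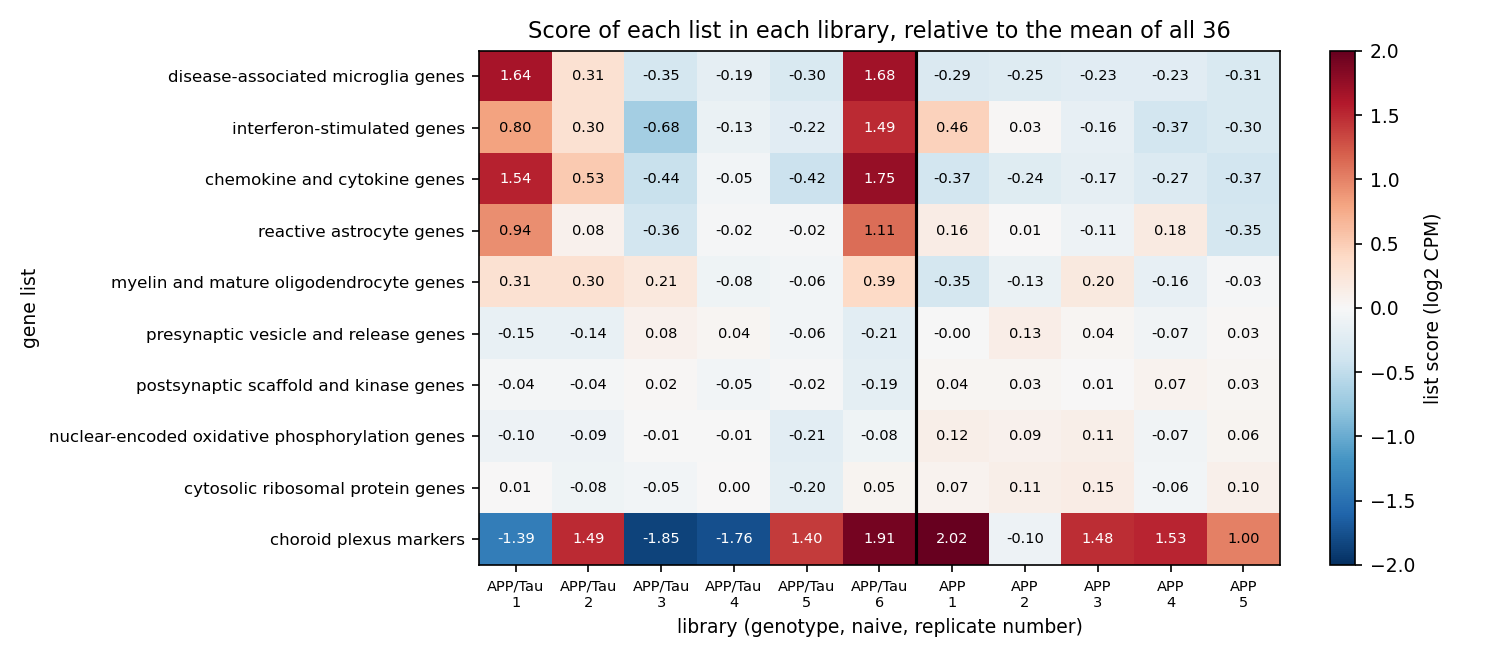
Score of 10 gene lists (rows; mean log2 CPM of the members minus the mean over all 36 libraries) in the 6 APP/Tau naive libraries (left of the black line) and the 5 APP naive libraries (right), with red above and blue below 0. APP/Tau replicates 1 and 6 score highest on the 4 immune and astrocyte lists, at 1.64 and 1.68 for disease-associated microglia genes, and the choroid plexus row runs from -1.85 to 2.02 across both groups.

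Of 38 immediate early genes 30 lay above 0 and 1 had an unadjusted p on the higher side (2.63%), with a median of 0.09. That gene, Npas4, an activity-dependent transcription factor gene of neurons, was at 15.1 to 29.1 CPM in APP/Tau and 11.1 to 20.5 CPM in APP libraries. Without APP/Tau replicate 3 the median of the immediate early list was 0.01. It was -0.22 in Tau naive against WT naive and -0.15 in the trained comparison. Of 16 p53 target and DNA damage genes 15 lay above 0 and 3 had an unadjusted p on the higher side (18.8%), with a median of 0.13, against 12 above 0, 3 with such a p and a median of 0.07 without replicates 1 and 6. Trp53inp1, a p53-induced gene, was at 15.1 to 20.02 CPM in APP/Tau and 12.8 to 14.5 CPM in APP libraries without overlap (log2 difference 0.35, SE 0.12, adjusted p = 0.515). Mdm2, the p53 ubiquitin ligase gene, averaged 53.5 ± 3.4 CPM and 47.7 ± 3.3 CPM. The median of the p53 list was -0.04 in Tau naive against WT naive and 0.05 in the trained comparison.

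Beyond the lists, some single genes came closer to the threshold. On the higher side Tmem86b, a lysoplasmalogenase gene, was at 4.17 to 7.68 CPM in APP/Tau and 2.93 to 3.65 CPM in APP libraries without overlap (log2 difference 0.79, SE 0.18, adjusted p = 0.327). Pik3c2b, a class II phosphoinositide kinase gene, was at 25.97 to 30.3 CPM and 20.7 to 22.9 CPM (0.36, SE 0.09, adjusted p = 0.424), and passed in a fit of the 2 groups alone (adjusted p = 0.0205). Sspo, Jam3, Bcl2l15, Zcchc8, Phldb1 and Il18bp had log2 differences of 0.83, 0.28, 0.79, 0.22, 0.34 and 0.24 in that order. On the lower side Asic2, Ap1ar, Tacc2, Sap30l and Fbxl16 had differences of -0.21, -0.14, -0.34, -0.17 and -0.22. Fbxl16, an F-box gene of neurons, was at 601 to 720 CPM in APP/Tau and 760 to 818 CPM in APP libraries. Over all genes tested, 254 had every APP/Tau library above every APP library (1%) and 141 had every one below (0.556%).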

How the data were processed

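The table deposited by the authors holds whole-number raw counts for 50559 mouse gene symbols in 36 libraries, used here unchanged. Trimmomatic 0.39 for trimming and the genome build mm39 are named in the submitters' processing notes. Which aligner, counter, strand setting and annotation were used is not given in the sources used here, so pseudogenes, overlapping genes and antisense genes are uncertain. Even numbers made up 54.8% of counts from 1 to 10, against 50% of counts over 1000. Per the labels' protocols, 100 ng of RNA went into each poly(A) library, read in pairs of 150 bp.

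Counts were fitted with edgeR 4.0.16 in R 4.3.3. Genes passing filterByExpr (minimum count 10, minimum total 15) were scaled by TMM and tested in 1 quasi-likelihood fit of all 8 groups (36 libraries), with Benjamini-Hochberg adjustment over all 25382 genes tested (two-sided, threshold 0.05). Log2 CPM for list scores used a prior count of 2. Of 25 pairs of libraries within the 2 groups, 0 held the same values. The scripts were tested on simulated data. DESeq2 1.42.0, limma-voom (limma 3.58.1) and other alternatives are described in the closing section.

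The groups, the lists and the rule for named genes were chosen with earlier results of these data known. The rule took Prnp, App, Mapt, Usp16, Pvalb and Rpl22, every gene called, the 10 smallest p-values in each direction among other genes whose mean log2 CPM was 0 or more and whose symbol was not of a predicted gene, up to 4 members of each list by p, and genes called in the tests of a difference. Rpl22, the gene altered in RiboTag mice, averaged 73.7 ± 5.6 CPM in APP/Tau and 73.5 ± 2.5 CPM in APP libraries (SD, n = 6 and 5). Of 47 lists, 25 are described. Promoter windows come from RefSeq with GRCm38.p6 coordinates, and gene neighbours from the gene order of that build. The value of 1 list member that the rule took is not reported here.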

Additional observations from a re-analysis of the deposited data

Results flagged for a closer look

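In 226 sets of values, a gene's level or a list's score in the APP/Tau naive or the APP naive libraries, the highest or lowest library was set against the others of its group by Dixon's 95% criterion. It lay apart in 16 of them, 4 in APP/Tau and 12 in APP libraries, where chance flags about 1 in 20. In APP/Tau replicate 6, Mapk8ip2 stood low at 215 CPM, Epha1, an ephrin receptor gene, stood high at 1.05 CPM, and the postsynaptic list scored -0.19. In APP/Tau replicate 1 the list of mitochondrially encoded genes scored -0.53. APP replicate 4 stood apart for 5 genes, with C4b at 106 CPM, Gfap at 818 CPM and the glycosyltransferase gene Ggta1 at 5.54 CPM on the high side, and Ndufb9 at 89.7 CPM and Prn at 47.5 CPM on the low side. APP replicate 3 stood apart with 0.0103 CPM of Gm6214, a single count, and with 6370 CPM of ND1, both high, and with 21.3 CPM of Sap30l and 0.226 CPM of Cybb, both low. Kif5c was high at 939 CPM in APP replicate 5, and Sostdc1, a choroid plexus gene, was high at 59.7 CPM in APP replicate 1. Tacc2 was low at 84.1 CPM in APP replicate 2. The 2 libraries with high microglial genes were not flagged for these genes, since they lie near each other and the criterion looks at a single library.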

How the results depend on the processing

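The alternatives were RLE scaling, testing without a filter on low counts, DESeq2, limma-voom with quality weights, a replicate block, the library number or the choroid plexus score as a covariate, only the groups compared, and leaving out each library in turn. Leaving out APP/Tau naive replicates 1 and 6 together, and Tau trained replicate 4, was chosen after seeing the data. The number of genes called in APP/Tau against APP was 8 in each fit of all libraries except DESeq2, which called 14, 11 of them higher. DESeq2 kept the 8 and added Cst7, Phf20, Sspo, Tmem86b and, outside the naming rule, 3110056K07Rik and Pdcd1. limma-voom kept 7 of the 8, losing Lamr1-ps1, and a fit of only the groups compared kept 7, losing Gm32875. Leaving out each library gave 7 to 9 genes called and 1 to 2 called lower, Fmn2 being the gene lost, and without APP/Tau replicates 1 and 6 the lower count was 1. The difference of the tau effect with and without APP was called for 4 genes with DESeq2, 1 in only the groups compared, and 0 to 1 when a library was left out, 1 without APP naive replicate 5. Without APP/Tau replicates 1 and 6 the log2 difference of Trem2 was -0.076 and that of Gfap -0.18, and the chemokine and cytokine median was 0.10. The numbers do not pair the samples: 5 same-numbered pairs had correlations of -0.12 to 0.04, and none was highest with its own number. With the replicate block 8 genes were called, the same as without it, and 1374 had an unadjusted p under 0.05; it called 0 genes in either test of a difference. The causes of these shifts were not tested. DESeq2 gave no p to 4 genes. Depth limits genes with few counts per library, Gm6214 and Gm32875 among them.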
